A study of Mus musculus with 8 samples.

Results

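The genes described here are the collagens, laminins, nidogens and a set of matrix glycoproteins of AML12, a mouse hepatocyte line derived from an animal transgenic for human TGF-alpha. They were taken by symbol, as every row named Col, Lam or Nid with the chain numbering of collagens, laminins and nidogens, plus Hspg2, Fn1, Agrn, Sparc, Bgn, Tnc, Thbs1, Thbs2, Fbln1 and Fbn1. This gave 67 genes of the 34945 named in the table. They comprised 21 basement membrane genes, 11 fibrillar collagens, 4 collagens of the basement membrane zone, 9 fibril-associated collagens, 14 other collagens and 8 matrix glycoproteins.

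Poly-A RNA was measured in 4 siCasp8 cultures, which received Casp8 siRNAs, and in 4 Scr cultures, which received a scrambled siRNA, each at 40 nM for 48 hours. The siCasp8 cultures are labelled as a Casp8 knockdown and the Scr cultures as WT, and both groups share the line, the serum-containing medium and the transfection reagent. The 4 cultures of a group are described as biological replicates. The series looks for secreted genes in cells silenced for Casp8, which encodes a protease of death receptor signalling, and matrix proteins are secreted.

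The extracellular matrix has a sheet-like and a fibrous form. Basement membranes are sheets under epithelia, built from a laminin network and a collagen IV network that nidogens and the heparan sulfate proteoglycans perlecan (Hspg2) and agrin (Agrn) join. Fibrillar collagens form the cables of connective tissue, and in the liver they are made chiefly by stellate cells and accumulate in fibrosis. Normal hepatocytes face a space with no continuous basement membrane, while cultured epithelial cells commonly secrete laminin, collagen IV and fibronectin.

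Values are the deposited normalized values per gene, which are not scaled to gene length. Casp8 itself was 1374, 1431, 1627 and 1490 in the siCasp8 libraries, against 3936, 3995, 4134 and 3825 in the Scr libraries, so 37.3% of the Scr mean was left. Depth, estimated from the value that 1 read is worth in each library, was 50.5 to 57.1 M reads in the siCasp8 libraries and 30.7 to 51.8 M reads in the Scr libraries. Depth therefore moved with the group, and its part in the results below was examined only by a fit with depth as a covariate. Of 10 hepatocyte markers, 9 were tested, 5 were higher and 1 was lower in siCasp8 (limma adjusted p under 0.05), where 19.4% of all tested genes were higher and 20.8% lower. Alb (log2 fold change 5.38), Ttr (1.46) and Trf (0.74) rose, and Apob fell by 0.25 on the log2 scale (not called after upper quartile rescaling). Cyp2e1, a defining enzyme of mature hepatocytes, averaged 1.70 in siCasp8 and 1.20 in Scr.

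The line expressed a basement membrane set of genes at high level and very little of the common fibrillar collagens. Per kilobase of the longest coding transcript, the 21 basement membrane genes summed to 20533 ± 579 in siCasp8 and 22087 ± 822 in Scr (SD, n = 4 each). The 11 fibrillar collagens summed to 1031 ± 46.04 in siCasp8 and 1295 ± 70.7 in Scr. Each of the 4 siCasp8 sums of fibrillar collagens, from 981 to 1092, lay below each Scr sum, from 1215 to 1387. These sums were mostly Col27a1, at 88.7% in siCasp8 and 90.8% in Scr. Of the 5 tested fibrillar collagens, only Col27a1, or 20.0%, had groups that did not overlap, against 37.5% of all tested genes. The basement membrane sums overlapped slightly, from 19891 to 21293 in siCasp8 and from 21108 to 22951 in Scr. In such bulk samples, fewer cells of a type and less RNA per cell cannot be told apart.

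**Figure D1:**
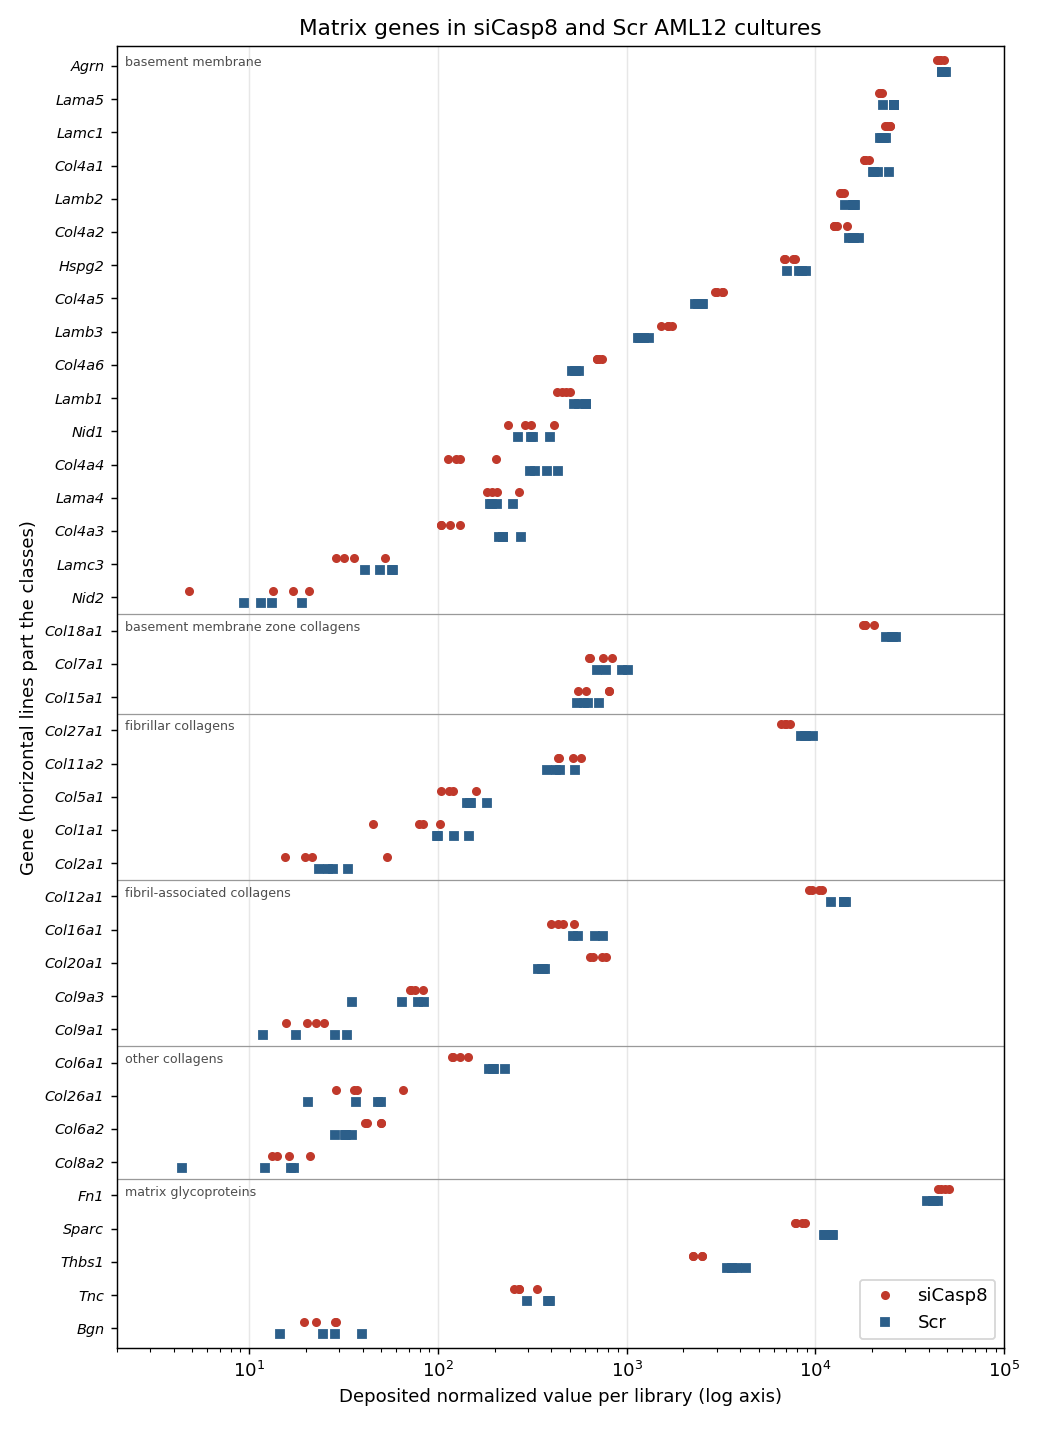
Deposited normalized value (log axis) of 39 of the 40 tested matrix genes in each library, with siCasp8 libraries as circles above Scr libraries as squares, grouped by class and ordered by mean. Agrn tops the basement membrane class at a mean of 45733 in siCasp8 and 47795 in Scr, and the fibrillar class is led by Col27a1 at 6956 in siCasp8 and 8954 in Scr.

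Only genes averaging 10 or more across the 8 libraries were tested, which held for 40 of the 67. Of these 40, 22 or 55.0% were called at a limma adjusted p under 0.05, where 40.2% of all 14154 tested genes were called. The matrix genes were called lower more often than higher: 16 or 40.0% were lower, against 20.8% of all tested genes, and 6 or 15.0% were higher, against 19.4% of all. The siCasp8 and Scr libraries did not overlap for 18 of the 40 genes or 45.0%, against 37.5% of all tested genes. The median log2 fold change was -0.16 over the 40 genes and 0.00 over all tested genes. Upper quartile rescaling shifted the all-gene median by 0.10, and after it 11 were lower and 7 higher, and with depth as a covariate 10 were lower and 4 higher.

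Basement membrane and fibrillar genes did not split into a rising and a falling class. Of 18 tested basement membrane genes, 7 were lower, 3 were higher and 8 were not called, and their log2 fold changes ran from -1.35 to 0.43 around a median of -0.15. Of 5 tested fibrillar collagens, 2 were lower, none was higher and 3 were not called, running from -0.62 to 0.15 around a median of -0.33. Both shares of calls, 55.6% and 40.0%, stand beside the 40.2% over all genes, and the difference between the classes was not tested. After upper quartile rescaling the basement membrane counts were 4 lower and 4 higher, and 1 fibrillar collagen was lower. With depth as a covariate 4 basement membrane genes and 1 fibrillar collagen were lower.

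**Figure D2:**
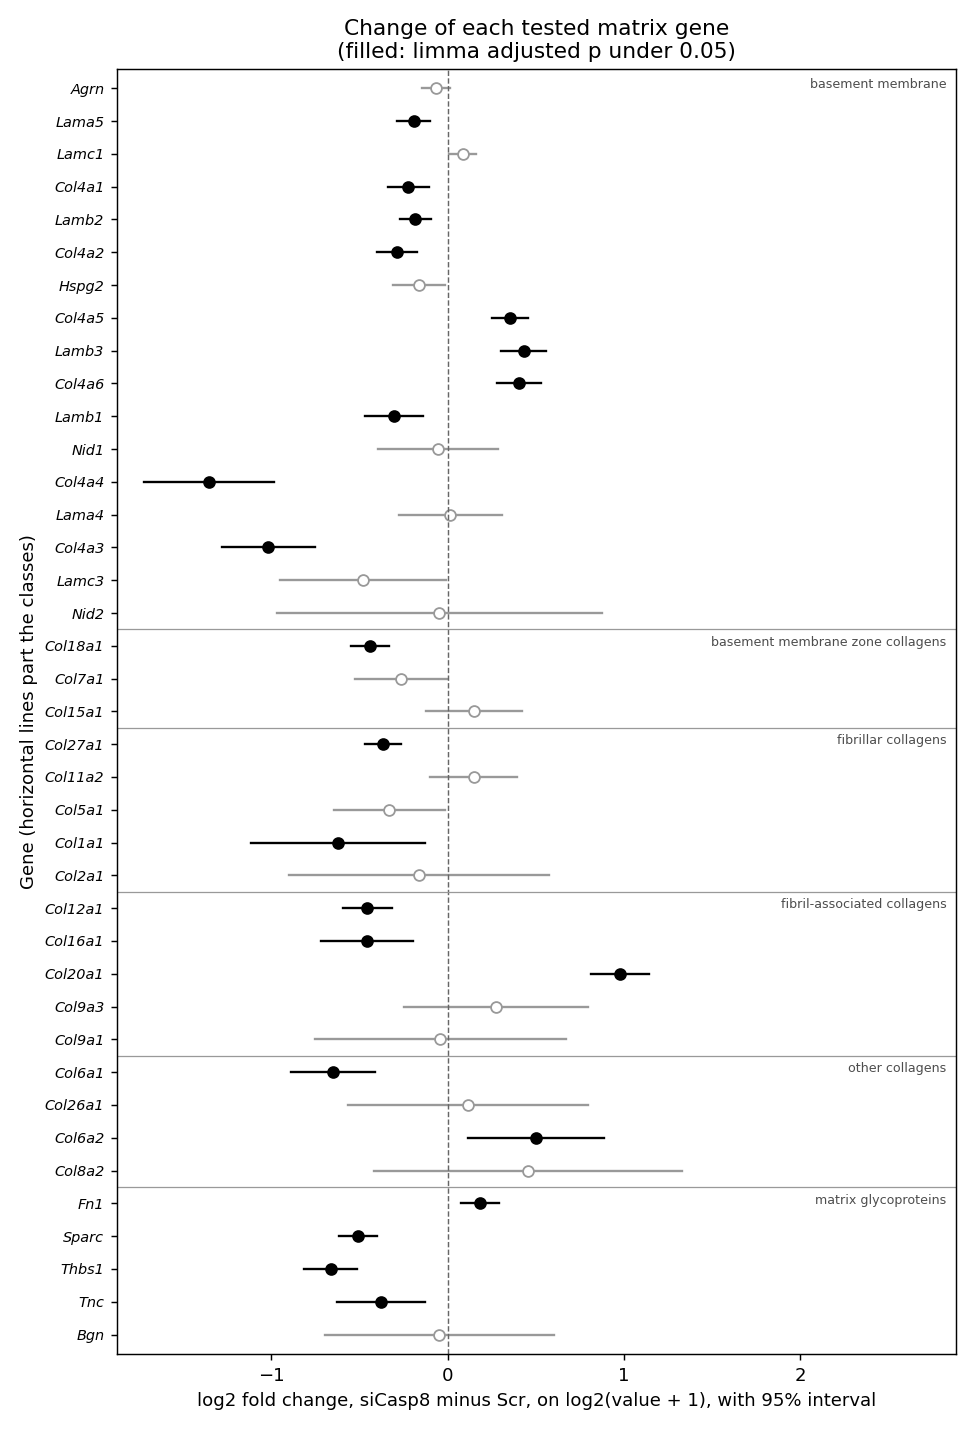
Log2 fold change (siCasp8 minus Scr, on log2(value + 1)) with its 95% interval for 39 of the 40 tested matrix genes, grouped by class; filled points were called by limma at an adjusted p under 0.05. The points run from -1.35 (Col4a4) to 0.98 (Col20a1), with called genes on both sides of 0 in the basement membrane class.

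Collagen IV, the network-forming collagen of basement membranes, changed in all 6 of its chains, in opposite directions by gene pair. The 6 genes lie in 3 head-to-head pairs, in which both genes are transcribed outward from a common stretch. Col4a1 and Col4a2 encode the chains of the ubiquitous network, and both were modestly lower. Col4a3 and Col4a4, whose products join that of Col4a5 in the network of the kidney glomerulus, fell the most. Col4a5 and Col4a6, whose products form another network in smooth muscle and some epithelia, were higher. No library of siCasp8 overlapped the Scr libraries for any of the 6. Over all tested genes, 40.2% were called and 37.5% did not overlap.

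Bases at or between the start sites are shown because both members of each pair changed in the same direction. Only parts of the stretch between Col4a6 and Col4a5 are printed. The annotated start of Col4a2 on chromosome 8 lies 21 bases inside the first exon of Col4a1, so that both first exons share 22 bases at chr8:11312805-11312826. The starts of Col4a4 and Col4a3 lie 72 bases apart on chromosome 1, and those of Col4a6 and Col4a5 lie 1309 bases apart on chromosome X. Sequences are from RefSeq on GRCm38.p6, 5′ to 3′ on the strand of the first gene named (the plus strand for the Col4a1 and Col4a2 bases), with positions of exons from GENCODE. Capitals mark the letters of a GC box (GGGCGG) or a CCAAT box on either strand, as found by searching each printed stretch. That of Col4a4 is the whole stretch up to the start of Col4a3 at chr1:82586850-82586920, that of Col4a6 lies at chrX:141474077-141474326, and that of Col4a5 lies at chrX:141475169-141475384.
Col4a1 and Col4a2 shared exon bases: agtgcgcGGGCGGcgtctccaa
Col4a4 to Col4a3: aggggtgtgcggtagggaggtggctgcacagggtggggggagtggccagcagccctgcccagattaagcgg
Col4a6 upstream: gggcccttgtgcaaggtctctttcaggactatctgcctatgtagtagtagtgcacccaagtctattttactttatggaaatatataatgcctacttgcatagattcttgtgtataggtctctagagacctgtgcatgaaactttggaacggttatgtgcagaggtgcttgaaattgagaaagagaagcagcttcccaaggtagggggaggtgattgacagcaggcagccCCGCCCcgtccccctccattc
Col4a5 upstream: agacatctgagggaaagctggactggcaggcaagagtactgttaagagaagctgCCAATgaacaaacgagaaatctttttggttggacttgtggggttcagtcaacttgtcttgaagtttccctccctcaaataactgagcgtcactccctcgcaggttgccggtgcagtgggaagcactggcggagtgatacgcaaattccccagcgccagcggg

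Promoter windows from 250 bases before to 50 after a start were in the RefSeq table for 49 of the 67 genes. The windows of Col4a1 and Col4a2, which overlap each other, held 1 and 3 matches to the GC box and 1 match each to CCAAT. The Col4a5 window held 1 of each, the Col4a6 window held 1 GC box and 1 TEAD motif (GGAATG), and the Col4a4 window held none of the motifs searched. No window of these 5 genes held TATAAA or the AP-1 motif TGANTCA. The GC box was in 35.7% of all 32851 windows, CCAAT in 37.4%, TATAAA in 13.6%, TGANTCA in 7.81% and GGAATG in 14.7%, on either strand and with overlaps counted. A match is a match of letters only.

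Col4a1 had 18092, 18364, 18378 and 19273 in siCasp8, against 20455, 24518, 20276 and 21445 in Scr. Its partner Col4a2 had 12587, 13011, 12470 and 14628 in siCasp8, against 15898, 17017, 15139 and 16074 in Scr. The 4 siCasp8 libraries were thus the lowest for both genes. The log2 fold changes were -0.22 for Col4a1 (SE 0.0540, limma adjusted p = 0.00569) and -0.28 for Col4a2 (SE 0.0522, adjusted p = 0.000894). The call for Col4a1 was lost after upper quartile rescaling (-0.12, adjusted p = 0.086) and with the depth covariate (-0.18, adjusted p = 0.188).

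Col4a3 had 104, 116, 104 and 132 in siCasp8, against 274, 221, 221 and 210 in Scr. For Col4a4 the values were 202, 113, 126 and 131 in siCasp8 and 377, 329, 306 and 431 in Scr, with siCasp8 replicate 1 above its 3 companions. Col4a3 fell to 49.2% and Col4a4 to 39.6% of the Scr mean. These were the largest falls among the 40 tested matrix genes, with log2 fold changes of -1.02 (SE 0.121, limma adjusted p = 3.37e-05) and -1.35 (SE 0.169, adjusted p = 4.78e-05). Exons of Col4a3 share 563 bases with the noncoding gene C430014B12Rik on the opposite strand, and whether strand was used in counting is not given in the sources used here.

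Col4a5 had 2944, 3236, 3021 and 3213 in siCasp8, against 2304, 2502, 2549 and 2375 in Scr. Col4a6 had 713, 697, 699 and 740 in siCasp8, against 563, 516, 532 and 540 in Scr. Every siCasp8 library stood above every Scr library for both genes. The log2 fold changes were 0.35 for Col4a5 (SE 0.0469, limma adjusted p = 8.19e-05) and 0.41 for Col4a6 (SE 0.0570, adjusted p = 0.000123), and both calls were kept under every alternative run. Per kilobase, Col4a5 and Col4a6 made up 10.7% ± 0.296 of the 6 collagen IV chains in siCasp8 and 7.24% ± 0.502 in Scr (SD, n = 4 each). For Col4a3 and Col4a4 the share was 0.505% ± 0.0707 in siCasp8 and 1.00% ± 0.131 in Scr. The remaining 88.8% ± 0.275 in siCasp8 and 91.8% ± 0.536 in Scr came from Col4a1 and Col4a2.

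**Figure D3:**
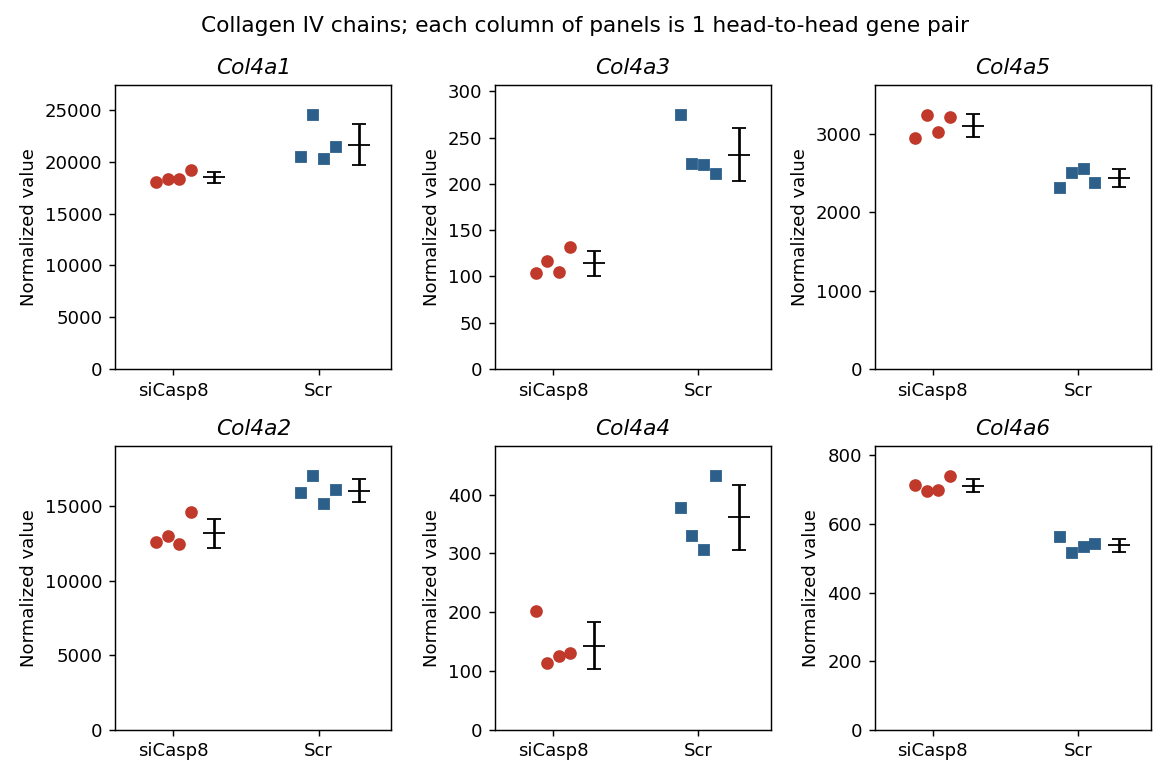
Normalized value of the 6 collagen IV genes in each library (points), with siCasp8 left of Scr and the mean ± SD of 4 libraries as a bar beside the points; each column of panels is 1 head-to-head pair. Col4a1 to Col4a4 were lower in siCasp8 and Col4a5 and Col4a6 were higher, with no overlap between the groups.

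Laminins are trimers of an alpha, a beta and a gamma chain, and the alpha chain carries the main binding sites for cell receptors. Lama5 was the alpha chain of this line, with 98.2% ± 0.344 of alpha chain levels per kilobase in siCasp8 and 98.4% ± 0.305 in Scr. Lama4, an alpha chain of vessels and muscle, averaged 213 ± 38.6 in siCasp8 and 209 ± 27.3 in Scr (log2 fold change 0.02) and was not called. Lama1 and Lama2 stayed under the mean of 10 and were not tested, reaching 3.09 and 4.60 in siCasp8 and 0.00 and 4.43 in Scr. Among beta chains Lamb2 led with 85.4% ± 0.709 in siCasp8 and 88.8% ± 0.977 in Scr, and among gamma chains Lamc1 led with 94.1% ± 0.559 in siCasp8 and 93.1% ± 0.348 in Scr. Of 8 tested laminin genes, 3 were lower and 1 was higher, where 20.8% of all tested genes were lower and 19.4% higher.

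Lama5 had 21921, 21967, 22608 and 21816 in siCasp8, against 25931, 26169, 22888 and 26007 in Scr. The lowest Scr library, replicate 3, was only just above the highest siCasp8 library. Lama5 fell by 0.19 on the log2 scale (SE 0.0434, limma adjusted p = 0.00372), a call that was lost after upper quartile rescaling (-0.09, adjusted p = 0.143) and with the depth covariate (-0.18, adjusted p = 0.111). The beta chain genes Lamb1 and Lamb2 fell by 0.30 and 0.18 (adjusted p = 0.00614 and 0.0031). The call for Lamb1 was lost with the depth covariate, and that for Lamb2 after upper quartile rescaling and quantile normalization.

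Lamb3, a beta chain of epithelia that joins Lama3 in a laminin of hemidesmosomes, was the laminin gene that rose. It had 1666, 1520, 1742 and 1657 in siCasp8, against 1318, 1178, 1238 and 1152 in Scr, with no overlap. It rose by 0.43 on the log2 scale (SE 0.0574, limma adjusted p = 8.13e-05), and its share of beta chain levels per kilobase was 11.8% ± 0.691 in siCasp8 and 8.05% ± 0.666 in Scr. Lama3 was not tested and ran from 2.52 to 8.88 in siCasp8 and from 2.55 to 4.17 in Scr, close to the value of a few reads.

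Lamc1, the common gamma chain, had 23468, 24764, 24790 and 23922 in siCasp8, against 22043, 23134, 22436 and 23792 in Scr. The groups overlapped by a narrow margin, and the log2 fold change of 0.09 was not called (limma adjusted p = 0.072). It was called higher after upper quartile rescaling (0.19), quantile normalization (0.15) and scaling to a common total (0.12), without Scr replicate 4 (0.105), and with a block for replicate number. Lamc3 was 37.2 ± 10.4 in siCasp8 and 51.4 ± 7.68 in Scr (-0.48, adjusted p = 0.0999) and was called lower without siCasp8 replicate 3 (-0.65) and under quantile normalization (-0.64).

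The linkers and proteoglycans of the basement membrane were not called. Agrn, the most abundant of the 67 genes per kilobase, had 43802, 45456, 45646 and 48029 in siCasp8, against 46572, 48266, 47019 and 49324 in Scr, and the groups overlapped (log2 fold change -0.06, 95% interval -0.14 to 0.02). Hspg2 was 7277 ± 483 in siCasp8 and 8166 ± 802 in Scr (-0.16, limma adjusted p = 0.0738). Without Scr replicate 3, its lowest Scr library at 7057, Hspg2 was called lower (-0.23, adjusted p = 0.004). Nid1, the nidogen that bridges laminin and collagen IV, was 313 ± 74.2 in siCasp8 and 321 ± 51.9 in Scr (-0.05), and its relative Nid2 was 14.0 ± 6.88 in siCasp8 and 13.3 ± 4.14 in Scr (-0.05).

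Of the 4 collagens of the basement membrane zone, Col18a1 was the abundant and the changed gene. Col18a1, whose C-terminal fragment is endostatin, had 17779, 18270, 18400 and 20404 in siCasp8, against 25306, 25904, 23522 and 26735 in Scr. All siCasp8 libraries were below all Scr libraries, and the mean fell to 73.8% of Scr (log2 fold change -0.44, SE 0.0495, limma adjusted p = 2.04e-05). Col15a1, its closest relative, averaged 694 ± 133 in siCasp8 and 619 ± 71.9 in Scr (0.15) and was not called. Col7a1, the anchoring fibril collagen, averaged 715 ± 97.0 in siCasp8 and 861 ± 147 in Scr (-0.26, adjusted p = 0.103), and without Scr replicate 3 it was called lower (-0.36, adjusted p = 0.024). Col17a1, a transmembrane collagen of hemidesmosomes, ran from 1.28 to 20.1 in siCasp8 and from 0.00 to 5.15 in Scr and was not tested.

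Col27a1 made up most of the fibrillar class. It had 6596, 6882, 7005 and 7340 in siCasp8, against 8402, 8797, 8925 and 9691 in Scr, with no overlap, and it fell to 77.7% of the Scr mean (log2 fold change -0.36, SE 0.0470, limma adjusted p = 6.33e-05). Per kilobase it held 88.7% ± 1.18 of the class in siCasp8 and 90.8% ± 0.862 in Scr. Col11a2, a minor chain that limits fibril width, had 440, 521, 434 and 570 in siCasp8, against 422, 530, 380 and 443 in Scr, and was not called (0.15, 95% interval -0.10 to 0.39). Col5a1, a chain needed to start fibrils, had 159, 121, 104 and 114 in siCasp8, against 143, 147, 183 and 150 in Scr, and was not called (-0.33, adjusted p = 0.0878). Quantile normalization (adjusted p = 0.0498) and leaving out siCasp8 replicate 1 (-0.46, adjusted p = 0.020) made Col5a1 lower.

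The chains of the most common connective tissue collagens were scarce in both groups. Col1a1 was 77.9 ± 23.9 in siCasp8 and 117 ± 22.2 in Scr, with overlap, and was called lower (log2 fold change -0.62, SE 0.227, limma adjusted p = 0.0460). That call was lost in all but 5 of the 18 alternatives, among them the depth covariate (adjusted p = 0.344) and leaving out any single library other than siCasp8 replicate 1 (up to 0.113). Its partner in the type I trimer, Col1a2, ran from 0.00 to 1.57 in siCasp8 and from 0.00 to 1.44 in Scr, where 1 read is worth 0.773 to 1.47. Col3a1 was listed at 0 in all siCasp8 libraries and reached 9.64 in 1 Scr library. Col2a1, the cartilage collagen, was 27.7 ± 17.6 in siCasp8 and 27.8 ± 4.16 in Scr (-0.16), with siCasp8 replicate 2 at 53.8. Col5a2 and Col5a3, partners of Col5a1, stayed at or below 6.88 in siCasp8 and 8.15 in Scr. Col11a1 and Col24a1 reached 4.78 and 4.73 in siCasp8 and 0.386 and 0.609 in Scr.

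Fibril-associated collagens sit on the surface of fibrils. Col12a1, which binds type I fibrils, had 10902, 9243, 9621 and 10477 in siCasp8, against 14204, 14223, 12147 and 14584 in Scr, with no overlap (log2 fold change -0.45, SE 0.0635, limma adjusted p = 0.000118). Col20a1 was the strongest riser of the 40 tested genes. It had 773, 741, 637 and 667 in siCasp8, against 357, 362, 338 and 370 in Scr, and its mean reached 197% of Scr (0.98, SE 0.0752, adjusted p = 9.7e-07). Its exons share 79 bases with another annotated gene on the same strand. Col16a1 fell by 0.46 (adjusted p = 0.00884), a call lost with the depth covariate, where the fall was no smaller (-0.51, limma adjusted p = 0.090). Col9a1 and Col9a3, chains of the cartilage collagen IX, changed by -0.04 and 0.27 and were not called, and Col9a2, Col14a1, Col19a1 and Col22a1 were not tested, with no value above 11.6 in siCasp8 or 7.32 in Scr.

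Collagen VI forms beaded filaments from a trimer of distinct chains, whose genes Col6a1 and Col6a2 lie on the minus strand of chromosome 10, at 76708792 to 76726168 and at 76595762 to 76623630. These neighbours went in opposite directions. Col6a1 had 118, 120, 131 and 145 in siCasp8, against 187, 197, 196 and 227 in Scr (log2 fold change -0.65, SE 0.109, limma adjusted p = 0.000484). Col6a2 had 41.4, 42.2, 50.1 and 49.9 in siCasp8, against 28.5, 32.7, 35.1 and 32.1 in Scr (0.50, SE 0.178, adjusted p = 0.0407). Neither gene's groups overlapped, but the call for Col6a2 was lost in 11 of the 17 alternatives that tested it, with an adjusted p of up to 0.338, including every single library left out other than Scr replicate 3. Col6a3, the remaining chain of the common trimer, ran from 0.603 to 1.79 in siCasp8 and from 0.00 to 2.24 in Scr. Col8a2 (0.46) and Col26a1 (0.12) were not called. Col8a1, the partner of Col8a2, ran from 3.50 to 8.52 in siCasp8 and from 9.51 to 15.8 in Scr and was too low to test. Col6a4, Col6a5, Col6a6, Col10a1, Col23a1, Col25a1 and Col28a1 stayed at or below 17.6 in siCasp8 and 12.5 in Scr, and Col13a1 was listed at 0 in all libraries.

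Of 5 tested matrix glycoproteins, Sparc, Thbs1 and Tnc were lower, Fn1 was higher and 1 was not called. Over all tested genes, 20.8% were lower and 19.4% higher. Sparc, a collagen-binding calcium-binding protein, had 7766, 7932, 8473 and 8760 in siCasp8, against 12389, 12211, 11210 and 11077 in Scr (log2 fold change -0.51, SE 0.0493, limma adjusted p = 5.77e-06). Thbs1, the thrombospondin that can activate latent TGF-beta, had 2519, 2255, 2241 and 2519 in siCasp8, against 4280, 3828, 3391 and 3630 in Scr (-0.66, SE 0.0681, adjusted p = 9.61e-06). The groups did not overlap for either gene, as for 37.5% of all tested genes, and both calls were kept under every alternative run. Tnc, the gene of the adhesion-modulating protein tenascin-C, fell by 0.38 (adjusted p = 0.0205) with overlapping groups, and its call was lost after upper quartile rescaling (adjusted p = 0.0738), with the depth covariate (adjusted p = 0.296) and without siCasp8 replicate 2, 3 or 4 or Scr replicate 1 or 4 (up to 0.0625).

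Fn1, which encodes fibronectin, had 51120, 46386, 44346 and 48723 in siCasp8, against 41840, 42304, 39169 and 44368 in Scr, and the lowest siCasp8 library lay just under the highest Scr library. It rose by 0.18 on the log2 scale (SE 0.0494, limma adjusted p = 0.0102), and the call was lost with the depth covariate (0.15, adjusted p = 0.238). Bgn, the small proteoglycan biglycan, was 24.9 ± 4.55 in siCasp8 and 26.9 ± 10.3 in Scr (-0.05). Thbs2, a relative of Thbs1, ran from 6.85 to 11.4 in siCasp8 and from 4.35 to 5.76 in Scr and was not tested. Fbln1 and Fbn1 reached 5.27 and 3.79 in siCasp8 and 8.40 and 2.32 in Scr. Exons of Fn1, Thbs1 and Tnc share 292, 208 and 176 bases with genes on the opposite strand. Over all 27 untested genes no library exceeded 20.1, reached by Col17a1 in siCasp8 replicate 3.

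Ratios of paired chains within a library show whether partners moved unequally, and a rescaling of libraries hardly moves them. Of 11 pairs fixed for this test, 8 had both chains tested, of which 7 are reported. The log2 ratio of Col4a1 to Col4a2 was 0.49 ± 0.0693 in siCasp8 and 0.43 ± 0.0684 in Scr (exact two-sided permutation p = 0.286, adjusted p = 0.381 over the 8 pairs). That of Col4a5 to Col4a6 was 2.12 ± 0.0695 in siCasp8 and 2.18 ± 0.114 in Scr (exact p = 0.429), and that of Col4a3 to Col4a4 was -0.30 ± 0.463 in siCasp8 and -0.63 ± 0.272 in Scr (exact p = 0.229). The ratio of Nid1 to Nid2 differed by -0.01 (exact p = 1). For these 4 pairs unequal change was not detected, which does not show that the partners moved alike.

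The other 3 ratios reported separated the groups in all libraries. The log2 ratio of Col6a1 to Col6a2 was 1.47 ± 0.0663 in siCasp8 and 2.62 ± 0.146 in Scr, a difference of -1.15. Relative to Lamc1, Lamb1 differed by -0.39 and Lamb2 by -0.27 between siCasp8 and Scr. Each of the 3 gave the smallest p that 4 against 4 libraries allow, 0.0286 in an exact two-sided permutation test, and each had an adjusted p of 0.0571 over the 8 pairs, so none passed the threshold of 0.05. Without siCasp8 replicate 1, the high library for Col4a4, these 3 ratios and that of Col4a3 to Col4a4 (a difference of 0.56) had an adjusted p of 0.046 in the exact permutation test. For the 3 ratios it was 0.0571 without any other siCasp8 library and 0.0762 without any Scr library. At the smallest exact p, the adjusted p depends on how many pairs reach it, so 0.046 is not stronger evidence.

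**Figure D4:**
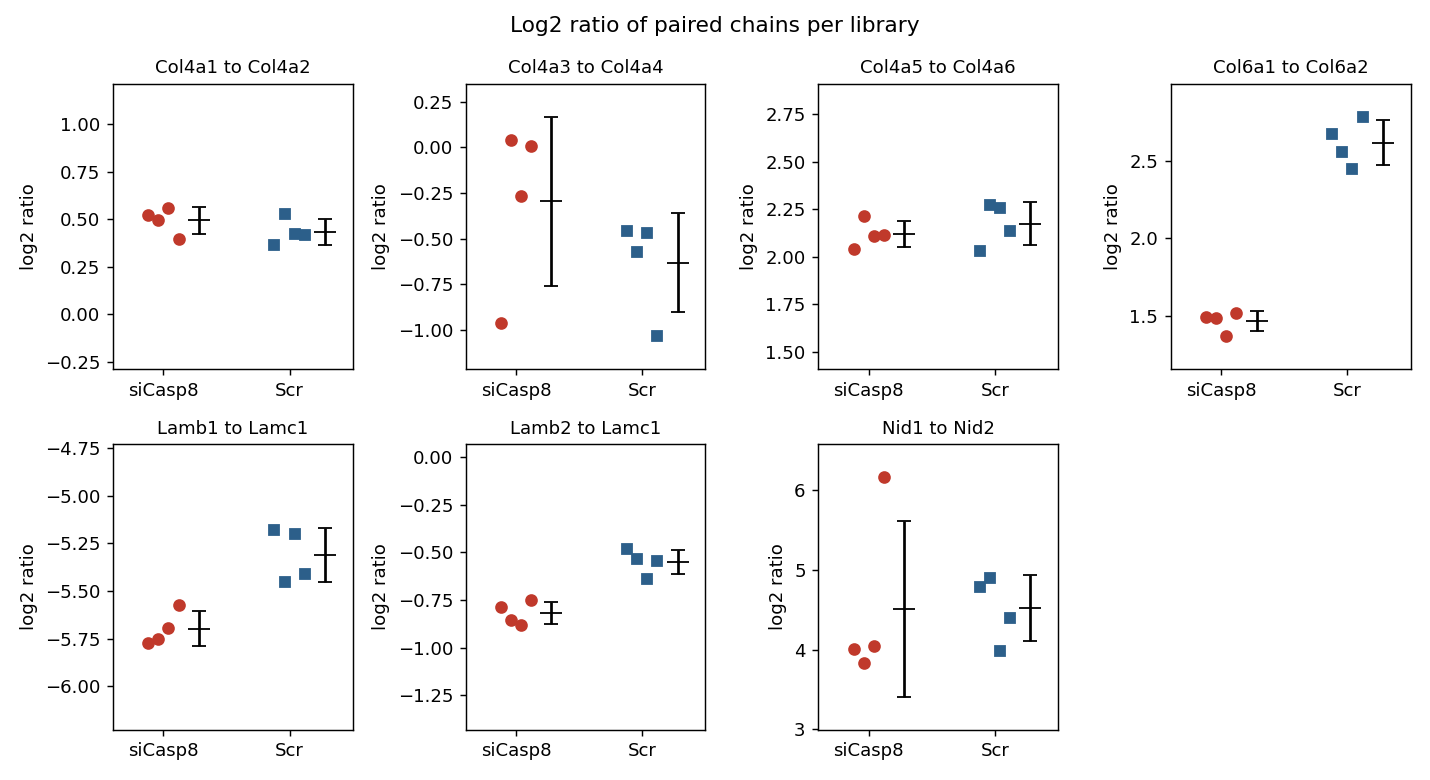
Log2 ratio of paired matrix chains in each library (points), with siCasp8 left of Scr and the mean ± SD of 4 libraries as a bar beside the points; vertical axes differ in position and span. The panels of Col6a1 to Col6a2, Lamb1 to Lamc1 and Lamb2 to Lamc1 show no overlap, and the other panels overlap.

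The enzymes, chaperones and receptors that serve these proteins changed in part. Of 26 tested genes of collagen processing, 7 or 26.9% were lower and 3 or 11.5% higher, against 20.8% and 19.4% of all tested genes. Loxl2, a lysyl oxidase that crosslinks collagen, fell to 1411 ± 147 in siCasp8, against 4028 ± 160 in Scr (log2 fold change -1.52), and Ppib, a prolyl isomerase of collagen folding, was 6156 ± 283 in siCasp8 and 8697 ± 129 in Scr (-0.50). P4hb, a subunit of the prolyl hydroxylase, and the hydroxylase gene P3h2 rose by 0.14 and 0.55. Of 18 tested matrix receptors, 6 or 33.3% were lower and 3 or 16.7% higher. The laminin-binding integrin gene Itga3 fell by 0.41 and the collagen-binding Itga1 fell by 0.24, while Itgb4, the integrin chain of hemidesmosomes, and Itga2 rose by 0.45 and 0.22. The calls for P3h2 and Itgb4 were lost with the depth covariate.

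Of 10 tested partners in basement membrane assembly, 4 or 40.0% were lower and 1 or 10.0% was higher. The shares of all tested genes were 20.8% lower and 19.4% higher. Ntn4, a netrin that binds laminin, and Fras1 fell by 0.46 and 0.79 on the log2 scale. The calcium-binding matrix gene Smoc1 rose by 0.68. Of the processing genes 38.5% were called, against 40.2% of all genes, and 9 of 18 receptors and 5 of 10 partners were called.

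Of 12 stellate cell and fibroblast markers, 3 were tested, Des (log2 fold change 1.94) and Pdgfra (0.92) higher and Postn (-0.85) lower. Over all tested genes, 19.4% were higher and 20.8% lower. The list, most of it Postn, summed to 346 to 435 in siCasp8 and 472 to 651 in Scr, and Hand2 was at 0 in all libraries. Calls for Des and Pdgfra were lost with the depth covariate, and that for Pdgfra also without siCasp8 replicate 1 or 4. Of 8 endothelial markers 2 were tested and neither was called, the list summed to 211 to 335 in siCasp8 and 220 to 561 in Scr, and Cdh5, Lyve1 and Erg were at 0 throughout. Of 7 macrophage markers 4 were tested and 1, Csf1r, was lower (-0.72). That list summed to 591 to 661 in siCasp8 and 798 to 860 in Scr, with Adgre1 and Clec4f at 0.

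Of 7 cholangiocyte markers 6 were tested, with Spp1 (log2 fold change 0.21) and Sox9 (0.15) among 2 higher and Krt19 (-0.15) among 3 lower, where 40.2% of all tested genes were called. This list summed to 129229 to 136579 in siCasp8 and 114618 to 123301 in Scr, most of it Spp1, and Epcam averaged 0.219 in siCasp8 and 0.00 in Scr. The call for Krt19 was lost under all 3 rescalings, with the depth covariate and without siCasp8 replicate 3, and that for Spp1 with the depth covariate. The part of these markers in the matrix results was not tested.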

How the data were processed

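Poly-A RNA-seq of 8 AML12 cultures was analysed, 4 siCasp8 and 4 Scr, grouped by their titles. Tools listed in the submitters' processing notes, without role or order, are DESeq2, sleuth, kallisto (0.44.0) and bcl2fastq (2.19), and the builds are GRCm38 and GRCh38. The authors deposited 1 signal value per gene and library, which the table's own name attributes to kallisto estimates after DESeq2 normalization. How transcripts were summed is not given in the sources used here. A single line without a symbol, 0.0481% to 0.0631% of each library's total, was left out. The value of 1 read in each library was read from the most frequent low value; 63.0% to 75.0% of low values lay within 0.1 read of a whole multiple, so count models were not used.

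limma 3.58.1 in R 4.3.3 tested siCasp8 minus Scr on log2(value + 1) for the 14154 genes with a mean of at least 10, with a trend in the prior variance, two-sided, with Benjamini-Hochberg adjustment over all of them. Fold changes of low genes are understated on this scale. The test was first tested on simulated data. Chain ratios used exact permutation over 70 arrangements. Levels per kilobase used the longest protein-coding transcript in GENCODE on GRCm38, and isoform use can shift them. The alternatives were other pseudocounts, filters and scalings, a depth covariate, a replicate block, no variance trend and each library left out. Every member is named other than results not reported here, with values of each library for the 12 called members of smallest adjusted p and the 3 most abundant of the basement membrane and fibrillar classes; in other lists, the 2 called genes of smallest adjusted p in each direction are named. A few more are shown because the text turns on them. Members, classes and lists were chosen with earlier results of these data known.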

Additional observations from a re-analysis of the deposited data

Results flagged for a closer look

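In all, 82 groups of 4 libraries were checked, and chance flags about 1 group in 20. The groups named here had 1 value apart from its 3 companions, with a gap to the nearest above Dixon's 95% critical share of the range. Scr replicate 3 was the low library for Lama5 (22888), Col12a1 (12147) and Tnc (296). For Col2a1, siCasp8 replicate 2 was high at 53.8. Without Scr replicate 3, Lama5, Col12a1 and Tnc were still called lower, and without siCasp8 replicate 2 Col2a1 was still not called.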

How the results depend on the processing

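Of the 22 called matrix genes, 13 kept direction and call in all 18 alternatives. Genes called lower were 10 instead of 16 with the depth covariate. Basement membrane genes called lower were 4 after upper quartile rescaling and 4 with the depth covariate. Fibrillar collagens called lower were 1, not 2, with no filter, upper quartile rescaling, a common total, the depth covariate, the replicate block and no variance trend, and 1 to 3 with single libraries left out. Without 1 library, the siCasp8 minus Scr difference was 0.20 to 0.56 in the chain ratio Col4a3 to Col4a4, -1.21 to -1.09 in the chain ratio Col6a1 to Col6a2, -0.44 to -0.35 in the chain ratio Lamb1 to Lamc1, -0.30 to -0.25 in the chain ratio Lamb2 to Lamc1 and -0.56 to 0.22 in the chain ratio Nid1 to Nid2. Without siCasp8 replicate 1 the first 4 had an adjusted p of 0.046 (exact permutation), and no other library left out brought any of them under 0.05. The Nid1 to Nid2 ratio was 0.011 at a pseudocount of 0.1.

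Genes that changed sign were never called. After upper quartile rescaling Agrn was 0.037, Bgn 0.051, Col9a1 0.054, Nid1 0.046 and Nid2 0.045; under quantile normalization Col26a1 was -0.026 and Lama4 -0.038; with the depth covariate Col26a1 was -0.051 and Nid1 0.11; at a pseudocount of 10 Nid2 was 0.0067. Leaving out libraries gave -0.30 to 0.16 for Bgn, -0.15 to 0.27 for Col26a1, -0.53 to 0.048 for Col2a1, -0.31 to 0.17 for Col9a1, -0.10 to 0.10 for Lama4, -0.20 to 0.070 for Nid1 and -0.28 to 0.36 for Nid2. The cause was not tested. Same-numbered libraries correlated at 0.0785, 0.0442, 0.169 and 0.0554 in their deviations, and differently numbered ones at -0.134 to 0.0450. Each siCasp8 library correlated most with the Scr library of its own number, though weakly. Whether the numbers pair the samples was not settled, and the main fit treated them as unpaired. The replicate block gave 6 higher and 16 lower. Under it Lamc1 (higher, adjusted p = 0.0496) and Hspg2 (lower, 0.0149) were called by limma, and Col1a1 (0.0720) and Col6a2 (0.0641) were not. The 27 untested genes averaged under 10 across the 8 libraries, so no call is given for them, and the part of depth in this was not tested.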
